A study of Mus musculus with 222 samples.

Results

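The 9 CHD remodellers (Chd1 to Chd9) and Atrx were followed in mouse primordial germ cells (PGCs) with a deletion of Eed, a core subunit of the histone H3 lysine 27 methyltransferase PRC2. The 10 genes were taken by symbol from the 24391 gene symbols shared by the 5 count tables, with no cutoff on their expression. The family itself was chosen by earlier readings of these data, with its ECKO and Control levels in every comparison below already known. CHD proteins are ATP-driven remodellers of the SNF2 superfamily that carry paired chromodomains and slide, evict or space nucleosomes. CHD3, CHD4 and CHD5 serve as alternative motor subunits of the nucleosome remodelling and deacetylase complex NuRD, and ATRX works with DAXX to place the histone variant H3.3 in heterochromatin and repeats. Both NuRD and ATRX have been tied to Polycomb silencing in mouse cells, and PRC2 in mammals is found mostly at promoters rich in CG dinucleotides.

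ECKO embryos carry a PGC-specific deletion of Eed (labelled Eed -/-), driven by the BC transgene (Blimp1-Cre), and Control embryos of the same crosses are labelled wild type. The dams were OG; Eed fl/fl and the sires BC; Eed fl/+, so embryos called wild type also come from floxed parents, and their exact genotype is not given in the sources used here. All embryos were C57BL/6;129S1/SvlmJ, and PGCs were sorted from gonads by the Oct4-GFP (OG) reporter, so each library holds the cells that still showed GFP. Bulk RNA came from E11.5 XX gonads (4 ECKO, 3 Control), E11.5 XY gonads (4 ECKO, 4 Control) and E13.5 XY gonads (3 ECKO, 4 Control), and E12.5 single cells came from 2 embryos for each sex and genotype.

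Bulk libraries held 415291 to 14974853 counts, and the shallowest was E11.5 XX Control 1. Eed itself averaged 9.85 ± 5.90 CPM in E13.5 XY ECKO and 97.5 ± 27.9 CPM in E13.5 XY Control (SD, n = 3 and 4). At E11.5 its ECKO and Control means were 32.8 ± 12.7 and 101.7 ± 26.1 CPM in XY, and 21.3 ± 6.86 and 78.8 ± 5.32 CPM in XX. At 10 CPM or more it was found in 33.3% to 72.2% of cells of E12.5 ECKO embryos, against 76.9% to 93.8% in Control. Some Eed transcript thus remained in ECKO. Its ranges in ECKO and Control did not overlap in any of the bulk or E12.5 comparisons. The summed level of 8 germ cell markers was 1866 to 2537 CPM in E13.5 XY ECKO, against 2712 to 3354 CPM in E13.5 XY Control. The markers did not all fall: 3 of the 8 had log2 fold changes above 0 (median of the 8, -0.65). Ddx4 read 338 to 496 CPM in E13.5 XY ECKO against 266 to 321 CPM in Control. Mael, higher in ECKO by a log2 of 2.15, was the 1 marker that passed the test used below. Libraries E11.5 XX ECKO 4 and E11.5 XY ECKO 4 had the highest interstitial marker sums of their groups, at 1212 and 434.5 CPM. In these bulk samples, fewer cells of a type and less RNA per cell cannot be told apart.

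The promoters of 2 members whose transcripts lay on opposite sides at E13.5 are shown first, though the Chd5 difference did not pass its test. They were chosen because they differ in CG content, with the fewest and the most CG dinucleotides of the 6 windows available. Each runs from 250 bases before to 50 bases after the start given by RefSeq on GRCm38.p6, a later build than the mm9 named for the counts, and capitals mark CG dinucleotides. Atrx lies at chrX:105929323-105929622 on the minus strand, and Chd5 at chr4:152338401-152338700 on the plus strand.
Atrx: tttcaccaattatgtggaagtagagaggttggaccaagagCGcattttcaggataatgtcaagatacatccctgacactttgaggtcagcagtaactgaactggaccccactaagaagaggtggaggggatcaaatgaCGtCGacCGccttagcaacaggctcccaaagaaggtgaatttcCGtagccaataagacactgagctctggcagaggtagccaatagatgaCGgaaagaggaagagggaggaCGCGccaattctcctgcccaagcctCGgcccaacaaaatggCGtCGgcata
Chd5: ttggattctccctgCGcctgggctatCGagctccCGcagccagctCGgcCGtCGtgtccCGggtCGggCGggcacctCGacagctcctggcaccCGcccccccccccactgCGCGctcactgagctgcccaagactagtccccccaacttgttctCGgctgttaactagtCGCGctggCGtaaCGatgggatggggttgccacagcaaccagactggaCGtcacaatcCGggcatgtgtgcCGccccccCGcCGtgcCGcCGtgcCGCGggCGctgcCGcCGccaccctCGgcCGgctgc
The Atrx window holds 11 CG dinucleotides, more than 58.1% of 27025 mouse promoters of that length, and the Chd5 window holds 32, more than 90.8%. The median over those promoters was 7. The promoter set used here held 6 of the 10 members. It had no entry for Chd1, Chd2, Chd3 and Chd7, and Chd1, Chd3 and Chd7 are among the members called at E13.5 below. Chd4 (17 CG), Chd6 (20), Chd8 (26) and Chd9 (19) lay between the Atrx and Chd5 windows. None of them was higher in ECKO at E13.5, with log2 values of -0.17, -0.38, -0.52 and -0.69 in that order, and none was called. The relation of CG content to these changes was not tested. The motif CCAAT, on either strand, was in the windows of Atrx, Chd4, Chd6 and Chd8, and in 37.9% of all promoters. GGGCGG, searched in the same way, was in every one of the 6 but Atrx, and in 35.9% of all promoters. TATAAA was in none of the 6 and in 14.2% of all promoters. For genes with several listed starts, the first was used.

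At E13.5 the family split in XY PGCs. Chd3, a NuRD motor, and Chd7, an enhancer-bound remodeller known for the human CHARGE syndrome, were higher in ECKO, while Chd1, which reads methylated H3 lysine 4 in transcribed genes, and Atrx were lower. These 4 of 10 members passed the test (edgeR quasi-likelihood, Benjamini-Hochberg adjusted p under 0.05), where 4.9% of the 12336 genes tested did. By direction, 2 members were higher and 2 lower, against 2.99% and 1.9% of all genes. All 10 members passed the filter on low counts in every comparison.

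Chd3 read 93.1, 113 and 169 CPM in E13.5 XY ECKO, against 6.06, 22.2, 7.60 and 17.1 CPM in E13.5 XY Control. CPM here, apart from those of the cell type markers, are library-size scaled counts, with TMM factors over all 22 bulk libraries. Every ECKO library was several-fold above the highest Control library, and the log2 fold change was 3.23 (SE 0.51, edgeR adjusted p = 0.00926). The call was kept in all 7 fits that each left out 1 library (log2 2.97 to 3.62).

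Chd7 read 326, 232 and 242 CPM in E13.5 XY ECKO, against 25.1, 53.6, 26.6 and 43.2 CPM in E13.5 XY Control. The groups were far apart, with a log2 fold change of 2.85 (SE 0.37, edgeR adjusted p = 0.00328), and all 7 fits with 1 library left out kept the call. Among the 12336 genes, Chd7 ranked 13 by p.

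Chd1 read 245, 202 and 147 CPM in E13.5 XY ECKO, against 549, 528, 629 and 548 CPM in E13.5 XY Control. The Control libraries lay close together and all ECKO libraries fell below them (log2 -1.51, SE 0.31, edgeR adjusted p = 0.0217). Only 3 of 7 fits with 1 library left out kept this call (adjusted p 0.00363 to 0.0943), while the log2 value stayed between -1.77 and -1.32. Without E13.5 XY Control 1 or 4, or without E13.5 XY ECKO 2 or 3, Chd1 did not pass.

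Atrx read 768, 413 and 334 CPM in E13.5 XY ECKO, against 1409, 1074, 2350 and 1561 CPM in E13.5 XY Control. ECKO library 1 was the highest of its group, and no ECKO library reached the lowest Control library. The log2 fold change was -1.66 (SE 0.42, edgeR adjusted p = 0.0418), and 2 of 7 fits with 1 library left out kept the call (log2 -2.18 to -1.35, adjusted p 0.00466 to 0.167). It was lost without any 1 of E13.5 XY Control 1, 3 or 4, or of E13.5 XY ECKO 2 or 3.

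Atrx is on the X chromosome, and Xist, the RNA that coats an inactive X, read 0.382, 25.4 and 55.8 CPM in E13.5 XY ECKO libraries 1 to 3, against 7.51, 7.52, 2.17 and 11.2 CPM in E13.5 XY Control. The ECKO libraries with the higher Xist were those with the lower Atrx. Of the autosomal members, Chd1, Chd2, Chd4 and Chd9 also fell from ECKO 1 to ECKO 3. Chd4 read 1198, 703 and 699 CPM in that order, and Chd9 read 120, 74.5 and 65.9 CPM. Chd3 and Chd8 rose over the same libraries, and Chd5, Chd6 and Chd7 did neither. The Y-linked gene Eif2s3y read 94.5, 91.3 and 62.7 CPM in the same ECKO libraries, against 126, 120, 156 and 86.4 CPM in Control. Among the 431 X-linked genes tested, 35 were called higher and 15 lower, with a median log2 fold change of 0.19, where the median of all genes was 0.05. The part of Xist in the Atrx values was not tested.

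Outside the called members, Chd5, the NuRD motor known for roles in mouse spermiogenesis, read 82.7, 54.5 and 92.3 CPM in E13.5 XY ECKO, against 9.42, 23.3, 6.92 and 35.7 CPM in Control. The groups did not overlap, but the log2 value of 2.02 (SE 0.58) missed the threshold (edgeR adjusted p = 0.0623), which it passed in DESeq2 (0.00657) and in edgeR without the filter on low counts (0.0150). Chd2, a close relative of Chd1, read 136, 87.6 and 73.7 CPM in ECKO, against 160, 187, 232 and 239 CPM in Control. It too did not overlap and did not pass in edgeR (log2 -1.04, SE 0.35, adjusted p = 0.101), though it did in DESeq2 (0.0489) and in edgeR without ECKO library 1 (0.0136). In all, 3 members were above Control without overlap (12.1% of all genes were) and 3 below (11.6%).

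The remaining members overlapped between genotypes at E13.5. Chd4, the main NuRD motor of embryonic stem cells, had a log2 fold change of -0.17 (SE 0.32), and ECKO library 1, at 1198 CPM, was above all Control libraries while the other ECKO libraries were below them. Chd6, Chd8 (a regulator of beta-catenin targets) and Chd9 had log2 values of -0.38, -0.52 and -0.69 with SE between 0.30 and 0.37, and none passed (edgeR adjusted p 0.286 to 0.791 over these 4). Markers of other cell types were not uniform between these groups. The endothelial marker sum was 31.0 to 76.7 CPM in ECKO against 152 to 224 CPM in Control. In Control most of it was Pecam1, at 142 to 214 CPM against 4.36 to 70.4 CPM in ECKO. The sum thus rests mostly on that gene in Control and does not show how many endothelial cells were present. Cdh5 was higher in ECKO, at 5.06 to 7.60 CPM against 1.69 to 3.88 CPM. Of 5 tested endothelial markers, 3 had log2 values above 0 (median 0.29). Of 5 tested interstitial markers, 1 (Pdgfra) was called higher and 2 were above 0 (median -0.45). Of 5 tested supporting cell markers, 1 (Krt19) was called higher and 2 were above 0 (median -1.72). Over all genes, 2.99% were called higher. Interstitial sums were 21.6 to 82.2 CPM in ECKO and 7.80 to 45.1 CPM in Control, and supporting cell sums 29.8 to 60.1 CPM in ECKO and 5.15 to 211 CPM in Control. Their part in the values of the members was not tested.

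**Figure D1:**
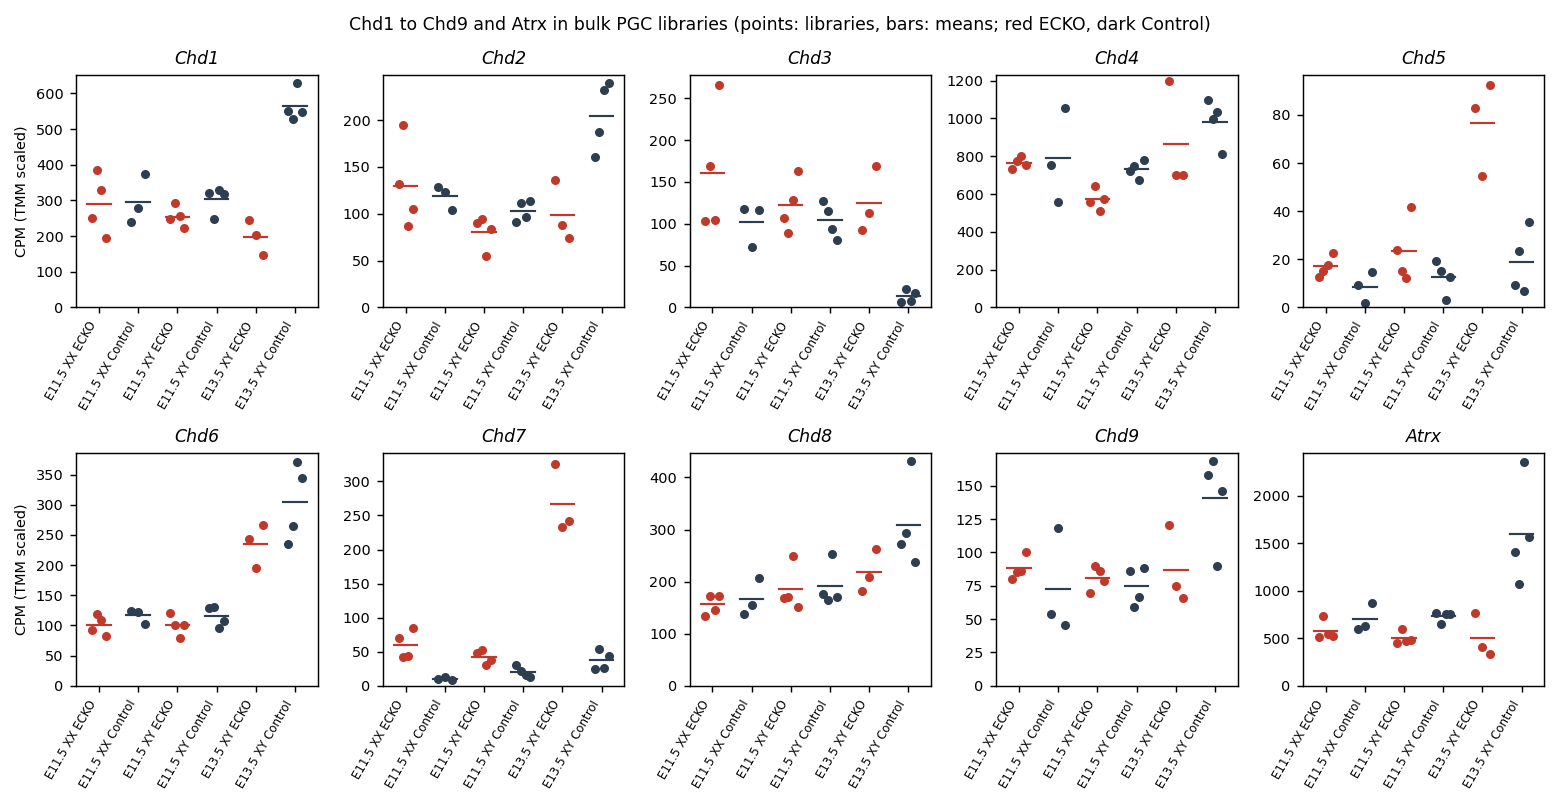
CPM of each member (vertical axes, TMM scaled, starting at 0 and differing between panels) in the 22 bulk libraries, by sex, stage and genotype. Points are libraries and bars group means. Chd3 in E13.5 XY Control lies at 6.06 to 22.2 CPM, below every other group, and Chd7 in E13.5 XY ECKO at 232 to 326 CPM, above every other group.

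The E11.5 stage asked which of these differences were already present. In XX PGCs only Chd7 passed, 1 of 10 members where 0.172% of 11058 genes did (0.136% higher). Eed, the deleted gene, did not pass there (log2 -1.88, edgeR adjusted p = 0.0567). Chd7 read 69.6, 42.4, 43.4 and 85.1 CPM in E11.5 XX ECKO, against 9.39, 12.3 and 8.87 CPM in E11.5 XX Control. The Control values rest on only 4, 19 and 27 counts. No ECKO library came near the Control range, and the log2 fold change was 2.56 (SE 0.42, edgeR adjusted p = 0.0281, rank 14 by p). The highest value was in ECKO 4, the library with the highest interstitial sum, and without it the call held at a log2 value of 2.34 (adjusted p = 0.0333). It was lost without any 1 of the 3 Control libraries or without ECKO 1 (adjusted p 0.106 to 0.224), while all 7 such fits gave log2 values of 2.34 to 2.73. Chd7 was also the only member without overlap, where 7.66% of genes lay above Control in that way.

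In E11.5 XY PGCs, Chd7 read 48.6, 53.0, 30.8 and 38.5 CPM in ECKO, against 29.9, 21.2, 16.5 and 12.3 CPM in Control. The lowest ECKO library was just above the highest Control library, and the log2 value of 1.12 (SE 0.31) did not pass in edgeR (adjusted p = 0.0754) but did in DESeq2 (0.0109). Without Control 1 it passed in edgeR as well (log2 1.39, adjusted p = 0.0328).

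Atrx was the member called at E11.5 in XY, 1 of 10, where 2.13% of 12497 genes were called (0.616% lower). It read 450, 593, 474 and 479 CPM in E11.5 XY ECKO, against 762, 649, 755 and 750 CPM in E11.5 XY Control. The groups did not overlap, the log2 fold change was -0.53 (SE 0.13), and the edgeR adjusted p of 0.0499 sat at the threshold. It passed in 1 of 8 fits with 1 library left out (without ECKO 2, adjusted p = 0.0406) and missed in the other 7, up to 0.139. DESeq2 gave 0.00598. In E11.5 XX, Atrx read 512, 737, 547 and 526 CPM in ECKO, against 601, 626 and 874 CPM in Control, and the groups overlapped (log2 -0.28, SE 0.19, edgeR adjusted p = 0.557).

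Chd4 read 561, 643, 509 and 575 CPM in E11.5 XY ECKO, against 723, 747, 674 and 778 CPM in E11.5 XY Control. All ECKO libraries were lower, with a log2 value of -0.33 (SE 0.13) that did not pass (edgeR adjusted p = 0.190). The E11.5 XY members without overlap were thus Chd7 above Control (4.95% of all genes were above) and Chd4 and Atrx below (4.99% were below). In E11.5 XX, Chd4 ranges overlapped (log2 -0.05, SE 0.20).

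Chd3 did not separate by genotype at E11.5. It read 106, 88.8, 129 and 164 CPM in E11.5 XY ECKO, against 127, 115, 94.2 and 80.4 CPM in E11.5 XY Control (log2 0.24, SE 0.21). In E11.5 XX it read 104, 169, 104 and 265 CPM in ECKO, against 117, 71.7 and 117 CPM in Control (log2 0.66, SE 0.34, edgeR adjusted p = 0.419), and the highest value was again in ECKO 4. Chd5 had log2 values of 0.92 in XY and 0.96 in XX with SE of 0.52 and 0.67. Chd1, Chd2, Chd6, Chd8 and Chd9 lay between -0.33 and 0.26 in both sexes, and none passed.

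**Figure D2:**
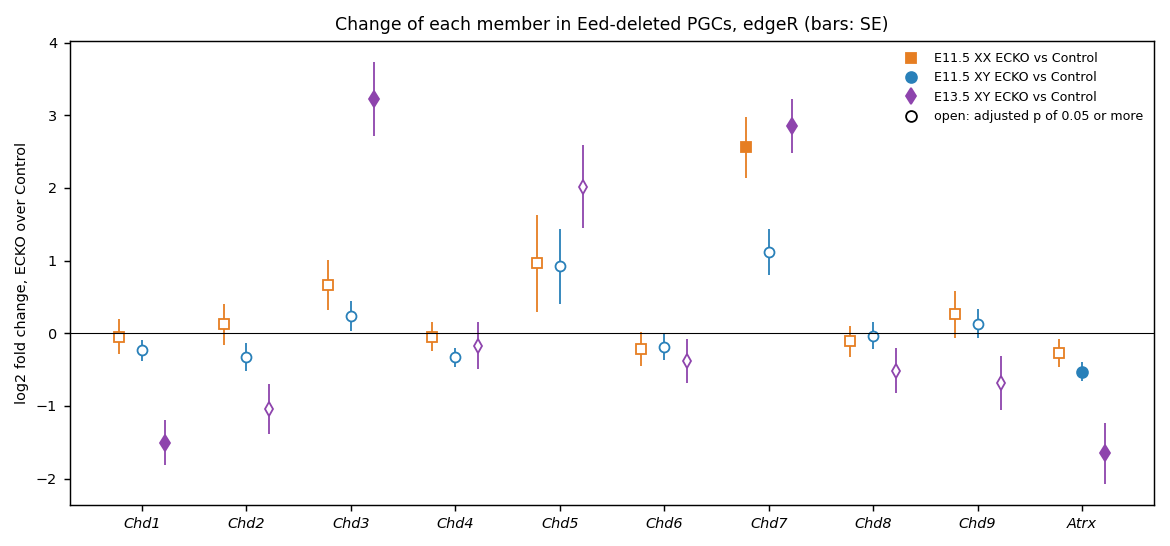
Log2 fold change of ECKO over Control for each member in the 3 bulk comparisons, with SE bars from edgeR; filled symbols have an adjusted p under 0.05. Chd7 lies above 0 in all 3 comparisons (1.12 to 2.85), and Chd3 reaches 3.23 at E13.5 only.

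Whether the ECKO effect differed between stages in XY was tested directly by an interaction term over all 22 libraries. The effect was larger at E13.5 for Chd3 by 3.01 on the log2 scale (SE 0.52, edgeR adjusted p = 0.00206) and for Chd7 by 1.74 (SE 0.46, adjusted p = 0.0389). It was more negative at E13.5 for Chd1, by -1.26 (SE 0.32, adjusted p = 0.0331). These were 3 of 10 members, where 2.59% of 15094 genes passed (1.18% with a higher and 1.41% with a lower effect at E13.5). With 1 library left out, Chd3 passed in all 22 fits, Chd1 in 15 and Chd7 in 11, with adjusted p up to 0.118 for Chd1 and 0.0952 for Chd7. The libraries without which Chd1 missed were E11.5 XY Control 1, 2 and 4, E11.5 XY ECKO 2 and 3, and E13.5 XY ECKO 2 and 3. For Chd7 they were E11.5 XY Control 1 and 2, all 4 E11.5 XY ECKO libraries, E13.5 XY Control 1, 3 and 4, and E13.5 XY ECKO 2 and 3. The Atrx interaction was -1.12 (SE 0.35, adjusted p = 0.0833), and it passed without E13.5 XY ECKO 1 (-1.57, adjusted p = 0.00107) and without E13.5 XY Control 2 (-1.27, adjusted p = 0.0496). Eed itself had an interaction of -1.67 (SE 0.56, edgeR adjusted p = 0.101), with a larger fall at E13.5. The part of the remaining Eed in these stage differences was not tested.

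The Control course gives the background to those differences. In XY Control PGCs, Chd3 fell by 2.98 on the log2 scale at E13.5 relative to E11.5 (SE 0.38, edgeR adjusted p = 6.03e-07), with 13.2 ± 7.72 CPM at E13.5 and 104 ± 20.9 CPM at E11.5 (SD, n = 4 each). In ECKO the means were 125 ± 39.5 CPM at E13.5 (n = 3) and 122 ± 32.3 CPM at E11.5 (n = 4), so the E13.5 ECKO libraries lay at the E11.5 level; that pair was not itself tested. The stage comparison crosses 2 tables, and stage and any batch between them cannot be told apart.

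Of the other members, 7 rose in XY Control PGCs at E13.5 over E11.5: Chd6 by a log2 of 1.40, Atrx by 1.13, Chd2 by 0.99, Chd9 by 0.91, Chd7 by 0.90, Chd1 by 0.89 and Chd8 by 0.69 (SE 0.21 to 0.32, edgeR adjusted p up to 0.0307). The call rate was high in this comparison, with 32.4% of 15094 genes called (17% higher, 15.4% lower). Chd1 averaged 563 ± 44.5 CPM in E13.5 XY Control and 303 ± 37.0 CPM in E11.5 XY Control, while ECKO means were 198 ± 49.0 CPM at E13.5 and 255 ± 29.1 CPM at E11.5. Atrx averaged 1598 ± 541 CPM in E13.5 XY Control and 729 ± 53.4 CPM in E11.5 XY Control, while its ECKO means were 505 ± 231 CPM at E13.5 and 499 ± 63.8 CPM at E11.5. Chd7 was higher at E13.5 in both genotypes by mean, at 267 ± 51.6 against 42.7 ± 9.99 CPM in ECKO and 37.1 ± 13.7 against 19.97 ± 7.56 CPM in Control. Chd4 (0.43, SE 0.20) and Chd5 (0.59, SE 0.57) did not pass. With 1 library left out, Chd7 passed in 15 of 22 fits, Chd8 in 17, Chd9 in 21 and the other 5 called members in all 22.

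The sexes were compared at E11.5. XX and XY libraries were deposited separately, so sex and any batch between them cannot be told apart. XX Control libraries were also shallower, at 415291 to 3088644 counts against 9112396 to 14974853 counts in XY Control. No member passed between XX and XY Control, where 24 genes did (0.159%). The largest member difference was Chd7, at 10.2 ± 1.83 CPM in XX Control (n = 3) and 19.97 ± 7.56 CPM in XY Control (n = 4), a log2 of -0.96 (SE 0.40, edgeR adjusted p = 0.734). X-linked Atrx differed by -0.05 (SE 0.26), and its sign turned under other size factors. The ECKO effect on Chd7 was larger in XX than in XY by 1.46 (SE 0.51), which did not pass (edgeR adjusted p = 0.99996). In that interaction 0 of 15094 genes (0%) passed in edgeR, 486 had an unadjusted p under 0.05, Chd7 among them (0.00762), and DESeq2 called 1 gene.

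The partner lists were compared to see whether the members' complexes moved with them. Of 12 other NuRD subunits, 1 was called at E13.5 (Mta3, lower), where 4.9% of all genes were called. The list median was -0.19, where the median of all genes was 0.05. Mta3, one of the alternative MTA scaffolds, read 68.8, 55.9 and 73.3 CPM in E13.5 XY ECKO, against 177, 220, 305 and 162 CPM in Control. The groups were well apart (log2 -1.71, SE 0.34, edgeR adjusted p = 0.0186). Along the Control course, in which 17% of all genes rose and 15.4% fell, 5 of the 12 rose and 2 fell, among them the methyl-CpG family subunit Mbd3 (-2.12) and Mta2 (-1.32) on the falling side with Chd3, and Cdk2ap1 (3.08) and the histone chaperone Rbbp7 (1.02) on the rising side. No NuRD subunit other than Chd3 passed the stage interaction.

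Of 15 genes that work with ATRX or H3.3, 1 was called at E13.5 and 1 at E11.5 in XY. Over all genes, 4.9% were called at E13.5 and 2.13% at E11.5 in XY. Cabin1, a subunit of the HIRA chaperone complex, read 270, 181 and 345 CPM in E13.5 XY ECKO, against 125, 117, 81.6 and 89.9 CPM in Control (log2 1.36, SE 0.32, edgeR adjusted p = 0.0352), without overlap. Trim28, a corepressor at transposon sequences, read 596, 514, 514 and 491 CPM in E11.5 XY ECKO, against 624, 808, 808 and 870 CPM in Control (log2 -0.54, SE 0.13, edgeR adjusted p = 0.0446). The list medians were 0.06 at E13.5 and -0.19 in E11.5 XY, where the medians of all genes were 0.05 and 0.00. Along the Control course, read against the same 17% and 15.4%, 5 of the 15 rose, among them the heterochromatin protein gene Cbx3 (3.40) and the H3.3 gene H3f3a (1.74), and 2 fell.

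Of 22 other SNF2-type ATPases, 1 was called at E13.5, a count near the 4.9% of all genes called. It was Smarca2 (BRM, a motor of the BAF complex). Smarca2 read 192, 105 and 126 CPM in E13.5 XY ECKO, against 462, 467, 542 and 340 CPM in Control (log2 -1.67, SE 0.34, edgeR adjusted p = 0.0196). The groups did not overlap. Smarca2 was also the 1 member of that list to pass the stage interaction (-1.82, SE 0.40, edgeR adjusted p = 0.0163), which 2.59% of all genes passed. In XY Control it rose by a log2 of 3.36 at E13.5 over E11.5, within a list of which 11 of 22 rose and 0 fell (17% and 15.4% of all genes). The list median at E13.5 was -0.42 for ECKO over Control. In E11.5 XX and at E12.5, no partner of these 3 lists was called.

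At E12.5, cells with at least 50000 counts and 1500 detected genes were kept, 127 of 192, and summed per embryo. No member passed in either sex, with 2 embryos in each group. Over all 13956 genes, 0.0215% passed in XX and 0.00717% in XY. Eed, the deleted gene, did not pass either (log2 -1.75, edgeR adjusted p = 0.353 in XX, and -1.70, 0.738 in XY). Chd7 read 108 and 104 CPM in XX ECKO embryos, against 60.4 and 0.662 CPM in XX Control embryos. In XY it read 49.7 and 91.0 CPM in ECKO embryos, against 16.6 and 4.36 CPM in Control embryos. Both ECKO embryos were above both Control embryos in each sex. Single cells weighed on these sums: 1 cell held 35% and 54.9% of the Chd7 counts in the XX ECKO embryos, 65.5% and 94.4% in XX Control, 26.3% and 27.3% in XY ECKO, and 76.4% and 37.5% in XY Control. The fit gave log2 values of 1.80 (SE 1.30, edgeR adjusted p = 0.587) in XX and 2.75 (SE 1.35, adjusted p = 0.768) in XY. The XY value passed when no filter on low counts was used (0.00906). The XX value ran over 0.82 to 7.31 with 1 embryo left out, and passed only without XX Control 1 (7.31, adjusted p = 0.00722). In XX, 3 members lay above Control without overlap (23.3% of all genes did) and 1 below (17.9%), and in XY 2 lay above (20.8%). CPM of embryo sums at E12.5, apart from those of the cell type markers, were scaled over the 8 embryos. They cannot be set against the bulk values.

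The cells themselves showed how widely Chd7 was detected. At 10 CPM or more it was found in 10 of 13 and 7 of 13 cells of the XX ECKO embryos (76.9% and 53.8%), against 3 of 14 and 1 of 16 cells of the XX Control embryos (21.4% and 6.25%). In XY it was found in 11 of 18 and 11 of 18 cells of ECKO embryos (61.1% each), against 3 of 13 and 4 of 22 cells of Control embryos (23.1% and 18.2%). Every ECKO embryo had the larger share, and exact 95% intervals for single embryos were wide, such as 46.2% to 95% for the first XX ECKO embryo and 0.158% to 30.2% for the second XX Control embryo. After thinning each cell to 50000 counts the shares with any count were 76.9% and 53.8% in XX ECKO, 21.4% and 0% in XX Control, 50% and 61.1% in XY ECKO, and 23.1% and 13.6% in XY Control. The 0% stands for 0 of 16 cells, and the limit set by 3 cells is 18.8%. Markers of other gonadal cells were uneven between the embryos, with Amh, Col1a1 and Ptprc at 10 CPM in at most 1 cell of any embryo but others, given below, higher in ECKO sums.

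**Figure D3:**
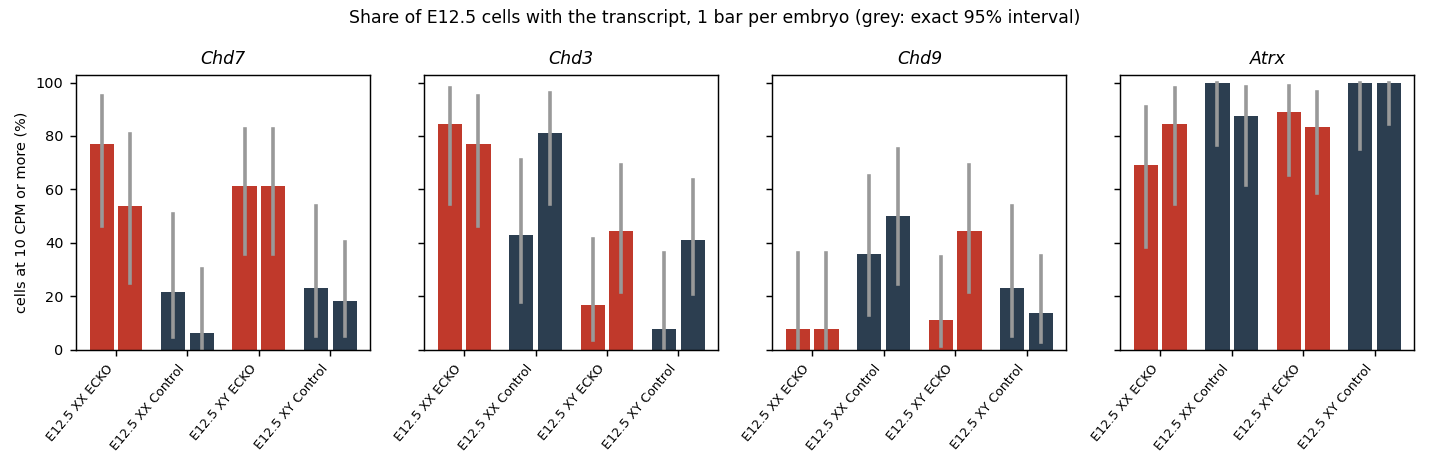
Share of kept E12.5 cells with at least 10 CPM of Chd7, Chd3, Chd9 or Atrx (vertical axis, %), with 1 bar per embryo and grey lines for exact 95% intervals. Chd7 shares lie at 53.8% to 76.9% in ECKO embryos and 6.25% to 23.1% in Control embryos.

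Summed Chd3 at E12.5 was higher in every XX embryo than in every XY embryo, but narrowly. The nearest were XX Control 1 at 23.4 CPM and XY ECKO 2 at 22.1 CPM. Shares of cells overlapped between the sexes. How many genes separate the sexes in this way was not computed. XX and XY cells were deposited separately, so sex and any batch between them cannot be told apart, here and for Chd9. Its shares of cells were 84.6% and 76.9% in XX ECKO, 42.9% and 81.2% in XX Control, 16.7% and 44.4% in XY ECKO, and 7.69% and 40.9% in XY Control. Summed levels were 67.8 and 71.5 CPM in XX ECKO against 23.4 and 46.6 CPM in XX Control, and 6.82 and 22.1 CPM in XY ECKO against 6.72 and 16.9 CPM in XY Control. XX over XY Control gave a log2 of 1.57 (SE 0.77, edgeR adjusted p = 0.875), a comparison in which 0.043% of genes passed and no member did. After thinning the shares were 46.2% and 61.5% in XX ECKO, 35.7% and 68.8% in XX Control, 11.1% and 38.9% in XY ECKO, and 15.4% and 22.7% in XY Control. They overlapped between genotypes in both sexes, and between the sexes. A single cell held 62.8% and 60.9% of the Chd3 counts in XX ECKO, 57.4% and 18.9% in XX Control, 47.1% and 62.8% in XY ECKO, and 54.9% and 30.5% in XY Control.

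Chd9 in ECKO lay on opposite sides of Control in the 2 sexes at E12.5. It read 3.44 and 8.50 CPM in XX ECKO against 32.7 and 38.0 CPM in XX Control, and 5.62 and 18.8 CPM in XY ECKO against 1.55 and 4.66 CPM in XY Control. The groups did not overlap in either sex, but the log2 values of -2.57 (SE 1.06) and 1.97 (SE 1.04) did not pass, nor did their difference of -4.53 (SE 1.49, edgeR adjusted p = 0.99997, DESeq2 0.0592). Between XX and XY Control the log2 was 3.50 (SE 1.11, edgeR adjusted p = 0.780, DESeq2 0.0149). Its shares of cells were 7.69% in both XX ECKO embryos against 35.7% and 50% in XX Control, and 11.1% and 44.4% in XY ECKO against 23.1% and 13.6% in XY Control. After thinning they were 7.69% and 15.4% in XX ECKO against 28.6% and 31.2% in XX Control, and 11.1% and 38.9% in XY ECKO against 15.4% and 18.2% in XY Control. In the XX ECKO embryos 1 cell held 92.4% and 98.6% of the Chd9 counts, against 48.6% and 37.1% in XX Control.

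Atrx was found in 69.2% and 84.6% of XX ECKO cells, 100% and 87.5% of XX Control cells, 88.9% and 83.3% of XY ECKO cells and 100% of XY Control cells in both embryos. After thinning the XX shares overlapped (53.8% and 76.9% in ECKO, 78.6% and 68.8% in Control), and the XY shares did not (66.7% and 83.3% in ECKO, 100% and 95.5% in Control). Summed levels were 72.8 and 192 CPM in XX ECKO against 70.6 and 69.3 CPM in XX Control, and 76.0 and 105 CPM in XY ECKO against 49.8 and 135 CPM in XY Control. In the first XX ECKO embryo 1 cell held 65.6% of the Atrx counts. Chd4 was found in at least 84.6% of cells of every embryo and Chd5 in at most 30.8%. Supporting cell marker sums at E12.5 were 286 to 434 CPM in XX ECKO against 26.8 to 147 CPM in XX Control, and 185 to 247 CPM in XY ECKO against 43.6 to 129 CPM in XY Control. Of the 11 supporting cell markers, 8 and 7 were detected in the XX ECKO embryos against 3 and 2 in XX Control, and 6 and 8 in the XY ECKO embryos against 3 and 2 in XY Control; Amh was at 0 in every embryo but XY Control 1. Krt19 read 11.1 and 12.1 CPM in XX ECKO and 96.8 and 8.43 CPM in XY ECKO, and was at 0 in all Control embryos. Unlike the other markers, Krt19 is given with TMM factors. The second XX ECKO embryo, which had the highest Atrx, stood apart with an interstitial sum of 321 CPM (2.92 CPM in the first, and 3.00 to 10.8 CPM in XX Control), Pdgfra at 168 CPM, Wt1 at 52.1 CPM and Gata4 at 23.9 CPM. In the other ECKO embryos Wt1 read 0.122 to 0.884 CPM and Gata4 0 to 2.52 CPM. Sox9 was at most 4.63 CPM in any ECKO embryo. Most of each supporting cell sum thus came from other genes of that list. Interstitial sums in XY were 5.75 to 8.04 CPM in ECKO and 0.282 to 2.47 CPM in Control. Germ cell marker sums were 1150 to 1772 CPM in XX ECKO against 2796 to 2975 CPM in XX Control. In XY they were 1521 to 1960 CPM in ECKO against 2389 to 2811 CPM in Control. Of the 8 germ cell markers, 3 in XX and 2 in XY had log2 values above 0, and none was called. Endothelial sums were also lower, at 7.81 to 24.9 CPM in XX ECKO against 70.9 to 144 CPM in XX Control. In XY they were 20.4 to 38.7 CPM in ECKO against 61.3 to 116 CPM in Control. Most of each Control sum was Pecam1, at 63.05 to 129 CPM in XX Control and 49.1 to 105 CPM in XY Control. These sums thus do not show how many endothelial cells were present. Pecam1 read 5.06 to 18.0 CPM in XX ECKO and 9.68 to 23.2 CPM in XY ECKO. Of 5 tested endothelial markers, 1 in XX and 3 in XY had log2 values above 0. The part of these differences in the member values was not tested.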

How the data were processed

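The tables hold counts deposited by the authors: whole numbers per gene symbol for 22 bulk libraries and 192 single cells. HISAT2, edgeR and mm9 are named, per the submitters' processing notes, with no versions; no source used here states the counting program or whether strand was used, so reads of overlapping genes cannot be told apart. Per the labels' protocols, bulk RNA was amplified with Ovation RNA-seq V2.

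Genotypes were compared within each bulk table by the quasi-likelihood F test of edgeR 4.0.16 (R 4.3.3), after filterByExpr and TMM. Stage, sex and interaction terms came from 1 fit over all 22 libraries, and E12.5 sums from 1 fit over 8 embryos. Calls needed a Benjamini-Hochberg adjusted p under 0.05 over all genes tested. Alternatives were DESeq2 1.42.0, RLE size factors, no filter, a replicate block, stricter cell filters and leaving out each library. The fits were checked on simulated counts. No bulk library repeated another within counting error.

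Cell shares have exact Clopper-Pearson 95% intervals, which, like a floor of 3 counts, cover counting error only; without molecular identifiers, reads are not separate molecules. Embryos are numbered by column order. 1 XX cell titled ECKO has a wild type genotype label and was kept as ECKO; leaving out cell 24 of each XX ECKO embryo, 1 of which it is, was an alternative. Levels were not compared between genes, since no coding lengths were used here. Equal replicate numbers did not pair libraries (correlations of deviations -0.146 to 0.168). The labels do not say whether replicates came from separate embryos, so p-values measure only the spread between these samples.

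The members, gene lists and tests were chosen with earlier results of these data known, so a p here is not independent evidence. Named genes were the 10 members, Eed, up to 4 called genes per list and comparison by adjusted p, and for the 2 members of widest range the 3 genes with the most similar pattern, of which 1 is not reported here. Xist and Eif2s3y were added after their values were seen. The 8 bisulfite libraries were not analysed here.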

Additional observations from a re-analysis of the deposited data

Results flagged for a closer look

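The effect of Eed deletion differed between E13.5 and E11.5 in XY PGCs for 3 members by the interaction test: Chd3 (3.01), Chd7 (1.74) and Chd1 (-1.26), as differences of log2 fold changes.

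Libraries far from the others of their group, among 40 groups of 4 libraries checked, came up 4 times; chance gives about 1 in 20. Atrx in E11.5 XX ECKO 2 was 737 CPM, where the other libraries were at 512 to 547 CPM. In E11.5 XY Control 2, Atrx was 649 CPM and Chd1 was 248 CPM, both lowest of their group. Chd8 in E11.5 XY Control 3 was 253 CPM, the highest of its group.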

How the results depend on the processing

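Counts of called genes over the whole tables moved with the tool. With DESeq2 they were 1031 (E11.5 XY, 266 in edgeR), 325 (E11.5 XX, 19), 2108 (E13.5 XY, 604), 1010 (stage interaction, 391), 65 (E11.5 Control XX over XY, 24), 1 (E11.5 sex interaction, 0), and at E12.5 1085 (XX, 3), 397 (XY, 1), 348 (Control XX over XY, 6) and 200 (sex interaction, 0). Without the filter on low counts they were 457, 217 and 1268 in the 3 bulk comparisons and 566, 150, 146 and 84 in the same order at E12.5. With a replicate block they were 151, 37 and 68 in the bulk comparisons and 250 for the stage interaction, and with the replicate block Chd1 (adjusted p = 0.159) and Atrx (0.210) at E13.5 and Atrx in E11.5 XY (0.124) were no longer called. No paired analysis was possible at E12.5 because the columns name embryos by identifiers that the labels do not tie to a replicate number; 1 XX ECKO and 1 XX Control embryo share the first part of theirs, and what that marks is not stated. RLE factors put Atrx in E11.5 XY at 0.0525. Without the filter Chd7 (0.0707) and Chd8 (0.0691) left the Control stage calls, and Chd5 at E13.5 (0.0150) and Chd7 at E12.5 XY (0.00906) entered.

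Signs turned for uncalled members: Chd1 in E11.5 XX to 0.11 with the replicate block, and Atrx between Control sexes to 0.048 with DESeq2 and 0.048 with RLE factors. With 1 library left out, counts ranged over 64 to 333 (E11.5 XY), 0 to 26 (E11.5 XX), 94 to 2141 (E13.5 XY), 136 to 1421 (stage interaction), 15 to 35 (E11.5 Control sexes), 0 to 1 (E11.5 sex interaction), and at E12.5 46 to 241 (XX), 3 to 53 (XY), 16 to 100 (Control sexes) and 0 to 37 (sex interaction). Log2 values that crossed 0 in such fits ranged over -0.22 to 0.13 (Chd1), -0.14 to 0.27 (Chd2), -0.25 to 0.19 (Chd4), -0.20 to 0.055 (Chd8) and -0.042 to 0.84 (Chd9) in E11.5 XX, -0.20 to 0.14 (Chd8) in E11.5 XY, -0.23 to 0.047 (Atrx, Control sexes), -0.16 to 0.34 (Chd4, stage interaction) and -0.80 to 1.11 (Chd3, E12.5 XY). A further 46 sex or E12.5 values of members, uncalled and not described here, turned sign in 13 of 214 alternatives and 70 of 592 fits with 1 library left out. The cause was not tested. The shallowest library, E11.5 XX Control 1, had 415291 counts, and E12.5 had 2 embryos per group.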

Other observations

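Over the 6 bulk and 4 E12.5 groups, Chd9 and Chd5 had the widest ranges of group mean log2 CPM (5.18 and 5.08), with the lowest mean of each in an E12.5 group; bulk and E12.5 groups differ in assay and were scaled apart. Among 10073 genes ranked, those whose group means followed Chd9 closely included Rlf and Ric1 (root mean square differences of 0.297 and 0.55 on the log2 scale, each gene centred on its own mean). For Chd5 they were Bbs10, Ttc21b and Zcchc14 (0.393, 0.433 and 0.44).

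The number of members at 10 CPM or more in a single E12.5 cell had a median of 5.0 to 6.0 in every embryo. No kept cell had fewer than 3 or more than 9 of the 10.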
